A study of Mus musculus with 28 samples.

Results

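Nascent RNA of the aminoacyl-tRNA synthetase genes was examined in mouse embryonic stem cells (mESCs) with and without a functional gene for Elongin A (EloA). The genes were taken by name from the deposited tables and number 36 of the 24984 rows: 20 encode synthetases of the cytosol and 16, with names ending in 2, encode synthetases of mitochondria. The place was read from the name, and whether a gene counted as cytosolic also serves mitochondria was not considered. RNA made during a short pulse of 5-bromouridine (BrU) was immunopurified and sequenced (Bru-seq) in 3 conditions, with 2 libraries of WT cells and 2 of cells labelled EloA null per condition, 12 in all. In steady state, WT or EloA null cells were given 2 mM BrU for 10 min and no drug. In the recovery conditions, cells of both genotypes were first treated with 1 µM flavopiridol (FP), an inhibitor of the kinase that releases paused RNA polymerase II (Pol II), for 60 min, washed, and given 2 mM BrU for 5 min or for 10 min. All groups were grown on fibroblast feeders in medium with LIF and the 2 inhibitors of 2i culture, and the feeders were depleted before labelling. The growth notes name the cells CCE28 and the labelling notes CJ7, no further line of either genotype is described, and the first steady-state library titled EloA null carries a genotype label of wild type. It was grouped by its title. Replicate Bru-seq experiments are described as independent, but no source says for each library whether it came from a culture of its own, so p-values measure the spread between these libraries, which may be technical.

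Each aminoacyl-tRNA synthetase joins 1 amino acid to its transfer RNAs, the step that sets which amino acid a codon stands for. The cytosol and the mitochondria of a mammalian cell translate separately and mostly draw on separate synthetases, all of them encoded in the nucleus. In the cytosol, several synthetases are held with the scaffold proteins Aimp1, Aimp2 and Eef1e1 in the multisynthetase complex, and Eprs carries the glutamyl and the prolyl activity in 1 chain. Many genes for cytosolic synthetases are known targets of the transcription factor ATF4, which acts when amino acids run short.

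The values were RPKM, reads scaled by gene length and by library size, so that levels can be compared between genes per length. The reads behind all 36 genes could be worked out from the steps between low RPKM values, with library sizes from 9857527 to 28547356 reads. They came out as whole numbers when the length was taken as that of the introns, apart from Mars2, which has 1 exon, although the methods describe counting over the entire gene. Between 12 and 23662 reads stood behind a value, and 30 of the 36 genes had at least 100 reads in every library. The fewest were 12 reads for Vars2 and 28 each for Aars2 and Pars2, all in 5-min recovery. All 10 embryonic stem cell markers, Pou5f1, Sox2 and Nanog among them, were above 0.5 RPKM in every library. Of 10 feeder fibroblast markers 0 were above 0.5 RPKM in every library, but single values were higher. Col1a1 reached 1.44 RPKM in a WT library and 1.01 RPKM in one labelled EloA null. The 10 summed to between 1.33 and 2.64 RPKM in WT libraries and between 0.754 and 1.90 RPKM in those labelled EloA null. Thy1, Dcn, Lum, Fap and Twist2 stayed below 0.1 RPKM throughout. Eloa itself, the targeted gene, was higher in the libraries labelled EloA null: 1.18 and 1.16 RPKM in WT against 1.96 and 1.89 RPKM in steady state, 2.96 and 2.82 against 5.14 and 6.25 RPKM after 5 min, and 4.65 and 6.51 against 8.74 and 8.93 RPKM after 10 min. A value for the gene as a unit does not show whether a deleted part is missing, and directions are therefore given for libraries by their label.

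Promoter sequence was at hand for 27 of the 36 genes, 13 cytosolic and 14 mitochondrial, as the 250 bases before and 50 bases after the transcription start in RefSeq (GRCm38.p6). Cars, Hars, Hars2, Lars, Nars, Pars2, Rars, Vars and Wars had no entry. The letters TGATGNAA, a form of the element that ATF4 binds with a C/EBP partner, were searched on both strands, and on the opposite strand they read TTNCATCA. They were found in 5 of the 13 cytosolic promoters and in 0 of the 14 mitochondrial ones, against 4.51% of 27025 genes with a promoter entry and 2.59% of the 8459 such genes expressed in these cells. For each of these 5 genes a match is shown, because they mark out a group of cytosolic synthetase genes, for alanine, glycine, isoleucine, threonine and tyrosine. Each line gives 30 bases on the strand of the gene, 5′ to 3′, with the matching letters in capitals.
Aars, chr8:111033840-111033869 (+): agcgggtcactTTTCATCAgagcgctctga
Gars, chr6:55037960-55037989 (+): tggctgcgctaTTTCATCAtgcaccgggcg
Iars, chr13:49682126-49682155 (+): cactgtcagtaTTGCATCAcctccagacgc
Tars, chr15:11399655-11399684 (-): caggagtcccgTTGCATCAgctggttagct
Yars, chr4:129189895-129189924 (+): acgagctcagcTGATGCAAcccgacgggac

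The letters CACGTG, which read the same on both strands, were in 5 of the 27 promoters (Aars, Ears2, Farsb, Iars and Tars), against 8.09% of all genes with an entry and 12.6% of those expressed. Aars, Iars and Tars held both motifs. A match describes letters in this window and not a bound site. In steady state the 5 genes with TGATGNAA had a median of 4.31 RPKM (3.15 to 7.66) and the 8 other cytosolic genes with a promoter entry a median of 3.70 RPKM (2.48 to 4.92), so the ranges overlapped. The log2 fold changes of the 5 genes between the genotypes ran from -0.01 to 0.19 in steady state, from -0.22 to -0.03 after 5 min and from -0.18 to 0.19 after 10 min. Those of the 8 others ran from -0.17 to 0.24, from -0.34 to 0.20 and from -0.22 to 0.36, ranges that contain those of the 5.

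In steady state the cytosolic synthetase genes had more nascent RNA per length than the mitochondrial ones, with medians of 3.80 and 1.84 RPKM over the 4-library means. The median over the 20 cytosolic genes was between 3.73 and 3.84 RPKM in the 4 libraries, and that over the 16 mitochondrial genes between 1.69 and 2.08 RPKM, a ratio of 1.82 to 2.20. All expressed genes had a median of 1.77 to 1.90 RPKM. In every one of the 4 libraries 19 of the 20 cytosolic genes lay above that median, with Hars as the exception, while 6 to 9 of the 16 mitochondrial genes did so. All 36 genes had a mean above 0.5 RPKM. The genes of both places had the same median length, 23.9 kb and 24.0 kb, and like GC content, with medians of 46.2% and 45.2%.

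The highest was Aars (alanine), with 8.34 and 6.66 RPKM in WT and 8.44 and 7.21 RPKM in the libraries labelled EloA null. Cars (cysteine) followed with 6.72 and 5.89 RPKM in WT and 7.09 and 6.89 RPKM in the others. Next was the mitochondrial Tars2 (threonine), with 5.92 and 4.90 RPKM in WT and 5.92 and 5.50 RPKM in the others. The 4 libraries of each of these neighbours overlapped with those of the next, as they did for 33 of the 35 neighbouring pairs in the order of levels. Tars2 was the only mitochondrial gene above the median of the cytosolic ones. Below these 3, Dars, Gars, Rars, Nars, Tars, Eprs and Iars, all cytosolic, had means over the 4 libraries of 4.22 to 4.92 RPKM. Mars, Farsb, Farsa, Yars, Qars, Wars and Kars had means of 3.04 to 3.85 RPKM, a range that held only Mars2 (3.05 RPKM) of the mitochondrial genes.

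The lowest was Lars2 (mitochondrial leucine), with 0.633 and 0.592 RPKM in WT and 0.633 and 0.614 RPKM in the libraries labelled EloA null, which lay below all 4 libraries of every other synthetase gene. Hars2 (mitochondrial histidine) had 0.956 and 0.943 RPKM in WT and 0.857 and 0.899 RPKM in the others. Aars2 (mitochondrial alanine) had 1.01 and 0.825 RPKM in WT and 1.09 and 1.16 RPKM in the others. Among cytosolic genes only Hars (mean 1.17 RPKM over the 4 libraries) was in this range. Hars and Hars2 are head to head on chromosome 18, with 3 bases between their annotated starts.

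**Figure D1:**
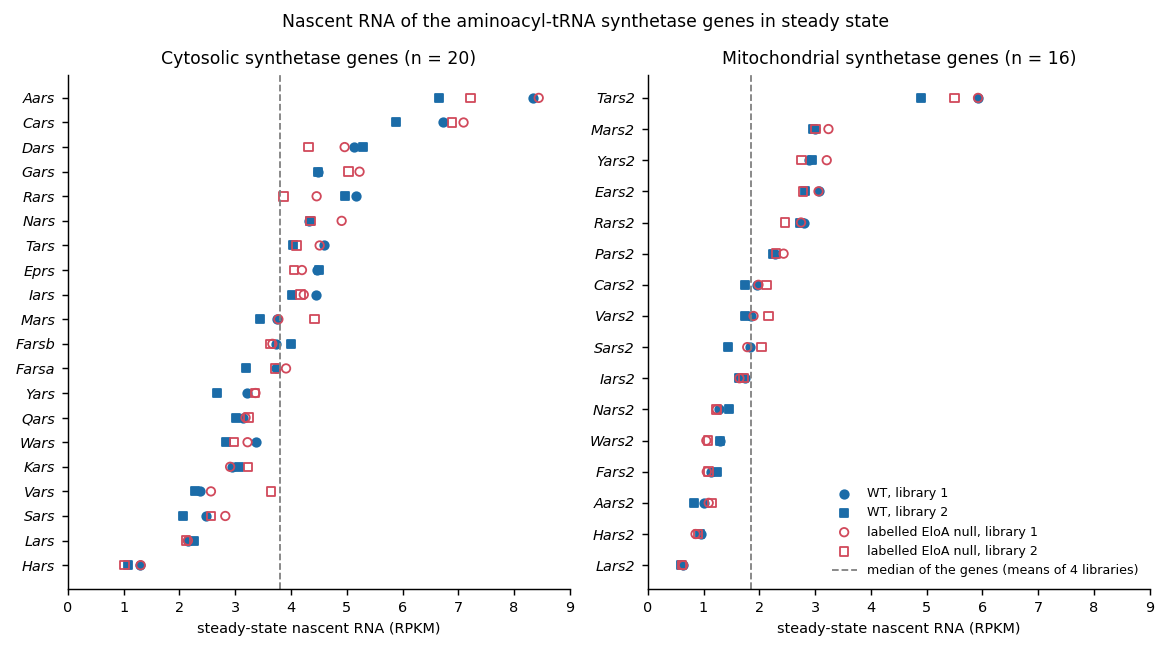
Steady-state nascent RNA in RPKM (x axis) of the 20 cytosolic and the 16 mitochondrial synthetase genes, 1 point for each of 2 WT (filled) and 2 EloA null labelled (open) libraries; the dashed line is the median over the genes of their 4-library means. The cytosolic genes centre at 3.80 RPKM and the mitochondrial genes at 1.84 RPKM, with Tars2 at 5.56 RPKM standing out among the latter.

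The kinds of enzyme had like levels. The 8 members of the multisynthetase complex ran from 2.17 RPKM (Lars) to 4.92 RPKM (Dars), with a median of 4.03 RPKM, against a median of 3.70 RPKM over the 12 other cytosolic genes (1.17 to 7.66 RPKM). The 19 class I synthetase genes had a median of 2.95 RPKM and the 17 of class II, which share another fold of the catalytic domain, 3.04 RPKM. Farsa and Farsb, the genes for the 2 kinds of subunit of cytosolic phenylalanyl-tRNA synthetase, had 3.64 and 3.76 RPKM. Across the 36 genes the Spearman correlation of level with length was -0.03 and with GC content -0.01.

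For 13 amino acids the tables hold 1 cytosolic and 1 mitochondrial gene of the same name. The cytosolic gene was higher in all 4 steady-state libraries for 11 of these 13 pairs. The widest gap was in the alanine pair, with 7.66 RPKM for Aars and 1.02 RPKM for Aars2, a ratio of 7.51. Lars and Lars2 differed by a ratio of 3.51, Nars and Nars2 (asparagine) by 3.45 and Cars and Cars2 by 3.40. The exceptions were threonine, for which the mitochondrial Tars2 exceeded Tars in all 4 libraries (means 5.56 and 4.31 RPKM), and tyrosine, for which Yars (3.15 RPKM) was above Yars2 (2.95 RPKM) in 3 of 4 libraries.

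After release from FP the genes stood at very different levels relative to steady state. The recovery level is defined here as the RPKM of a recovery library over the mean steady-state RPKM of its genotype. RPKM sets each library to its own total and the 3 conditions are separate tables, so recovery levels describe a gene relative to others and are given without a test. Over the 36 genes the mean recovery level of the 4 libraries ran from 0.118 to 3.16 after 5 min, with a median of 0.602, and from 0.240 to 3.71 after 10 min, with a median of 1.18. All expressed genes had medians of 0.541 to 0.669 after 5 min and of 0.985 to 1.07 after 10 min. In 30 of the 36 genes all 4 levels at 10 min were above all 4 at 5 min.

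The shortest genes were among the highest. Mars2 (mitochondrial methionine), a gene of 2.9 kb with 1 exon at chromosome 1, 55237177 to 55240058, had recovery levels of 1.77 and 2.09 in WT and 2.21 and 2.84 in libraries labelled EloA null after 5 min. After 10 min it had 3.64 and 3.42 in WT and 3.37 and 3.83 in the others. Qars (glutamine, 7.9 kb), a member of the multisynthetase complex, had 2.18, 1.79, 2.03 and 2.05 after 5 min and 3.30, 3.35, 4.20 and 3.98 after 10 min, WT first. Yars2 (6.7 kb) had 0.906, 1.05, 0.724 and 1.10 after 5 min and reached 2.11, 2.31, 2.36 and 2.27 after 10 min, in the same order. The second shortest gene was an exception: Pars2 (mitochondrial proline, 4.2 kb) had 0.677, 0.491, 0.517 and 0.738 after 5 min and 0.969, 0.766, 1.15 and 1.13 after 10 min, a mean of 1.00 at the later time.

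Genes of like length differed severalfold. Between 10 and 20 kb, Kars (lysine, 17.9 kb) stood at 1.55 ± 0.17 after 5 min and 2.96 ± 0.27 after 10 min (SD, n = 4 libraries, both genotypes pooled). Farsa (12.3 kb) stood at 1.26 ± 0.10 and 2.67 ± 0.20. By contrast Vars (valine, 15.4 kb) stood at 0.214 ± 0.055 and 0.742 ± 0.076, and its mitochondrial counterpart Vars2 (12 kb) at 0.118 ± 0.072 and 0.477 ± 0.110, the latter on 12 reads or more per library. Aars2 (14.0 kb) and Sars2 (mitochondrial serine, 11.9 kb) were also low after 5 min, at 0.309 ± 0.119 and 0.433 ± 0.144. The SD after 5 min includes a gap between genotypes in Vars2 and Aars2. Vars2 had 0.215 and 0.127 in WT and 0.0872 and 0.0451 in libraries labelled EloA null. Aars2 had 0.470 and 0.318 in WT and 0.194 and 0.253 in the others. In Vars and Sars2 the genotypes overlapped. Vars, Vars2, Aars2 and Sars2 have the 4 highest GC contents of the 36, from 53.0% to 55.6%. Mars (15.6 kb, 49.6% GC) was nearly as low as Sars2 after 5 min, at 0.449 ± 0.058. Dars, with the lowest GC content (39.0%), was at 0.128 ± 0.015. Whether GC content plays a part in these levels was not tested. Over the 36 genes its Spearman correlation with recovery was -0.35 after 5 min and 0.12 after 10 min, and over 10541 expressed genes -0.20 and -0.03.

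The contrast was as wide among longer genes. Dars (aspartate, 53.7 kb, chromosome 1, 128363707 to 128417416) had the lowest level of any cytosolic synthetase gene at both times, with 0.140 and 0.136 in WT and 0.105 and 0.13 in libraries labelled EloA null after 5 min. After 10 min it had 0.271 and 0.288 in WT and 0.272 and 0.266 in the others. Eprs (65.3 kb), on the same chromosome and at a like steady-state level, had 0.787, 0.847, 0.748 and 0.881 after 5 min and 1.42, 1.29, 1.28 and 1.31 after 10 min. Rars2 (mitochondrial arginine, 45.2 kb) was at 0.953 ± 0.087 and 1.5 ± 0.065, whereas Gars (glycine, 41.5 kb) was at 0.277 ± 0.047 and 0.647 ± 0.085. Cars2 (36.8 kb) stayed at 0.206 ± 0.071 and 0.240 ± 0.044.

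The longest genes ran the other way in time. Fars2 (mitochondrial phenylalanine), by far the longest at 420 kb (chromosome 13, 36117643 to 36537595), had 3.00 and 2.98 in WT and 3.62 and 3.05 in libraries labelled EloA null after 5 min, the highest of all 36 genes, and only 1.12, 1.16, 1.06 and 1.26 after 10 min. Nars2 (113.2 kb, chromosome 7, 96951527 to 97064758) had 1.24, 1.25, 1.43 and 1.05 after 5 min and 0.481, 0.444, 0.347 and 0.411 after 10 min. Lars2 (95.7 kb, chromosome 9, 123366927 to 123462675) had 0.919, 0.815, 0.841 and 0.792 after 5 min and 0.661, 0.560, 0.612 and 0.614 after 10 min. The fourth was Wars2 (mitochondrial tryptophan, 79.1 kb), with 0.928 ± 0.082 and 0.442 ± 0.055. In these 4 genes, the longest of the 36 and all mitochondrial, every 10-min level lay below every 5-min level, and Lars and Cars2 were the 2 genes in which the times overlapped. Values of Fars2 rested on 9520 reads or more in every library.

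The order of the genes followed length more closely after 10 min than after 5 min. The Spearman correlation of recovery level with gene length across the 36 genes was -0.06 after 5 min and -0.64 after 10 min, and across 10541 expressed genes -0.03 and -0.32. In the class under 10 kb, the 5 synthetase genes had medians of 3.12 to 3.41 in the 4 libraries after 10 min, against 1.17 to 1.30 for all expressed genes of that length. In the class of 20 to 40 kb the 7 genes, at 1.09 to 1.32, were close to all expressed genes, at 1.10 to 1.21, and so were the 13 genes over 40 kb, at 0.585 to 0.70 against 0.646 to 0.663. For genes over 100 kb the medians of all expressed genes were 1.10 to 1.22 after 5 min and 0.647 to 0.663 after 10 min, so the order in time seen in Fars2 and Nars2 was shared by long genes at large. Measured against all expressed genes of their own class, Dars and Vars2 were below the 10th percentile in all 4 libraries at both times, and Cars2 was so after 10 min. Fars2 was above the 90th percentile in all 4 libraries after 5 min, and Eprs, Qars, Hars2, Mars2 and Rars2 were so after 10 min.

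**Figure D2:**
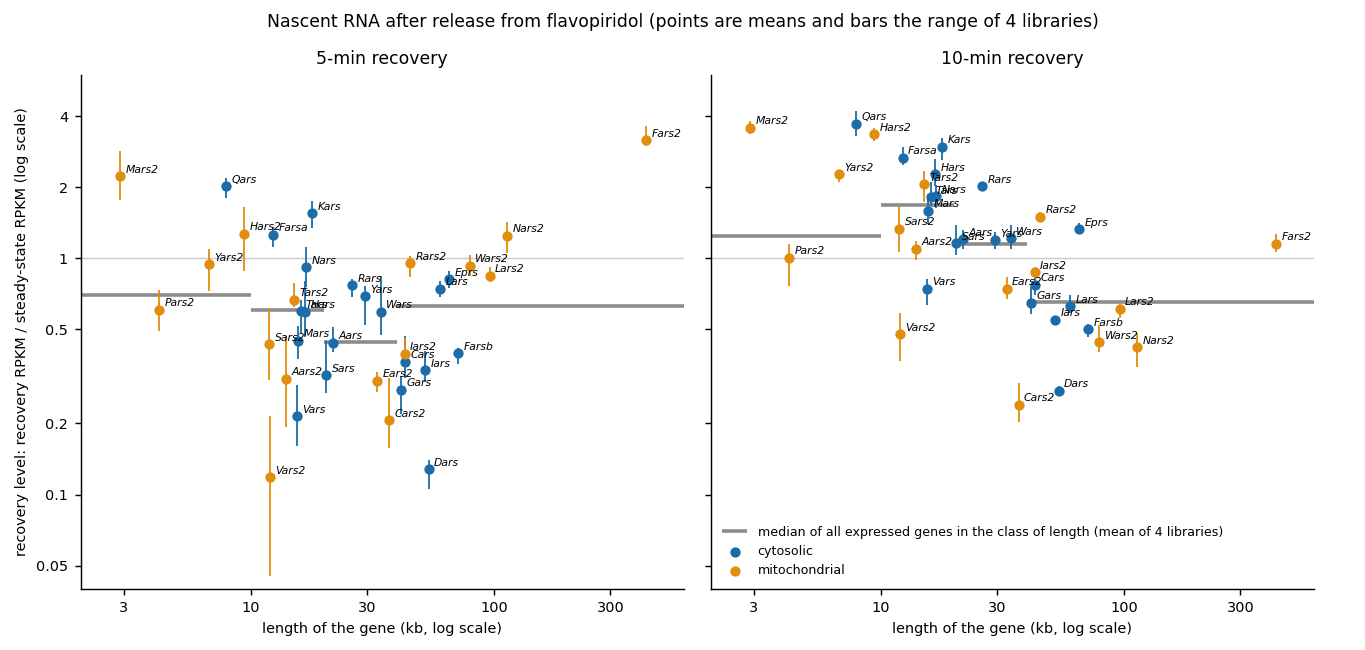
Recovery level (RPKM in recovery over steady-state RPKM of the same genotype, log scale) of each synthetase gene against its length in kb (log scale) after 5 min and 10 min; points are means and bars the range of 4 libraries, and grey lines are medians of all expressed genes per class of length. Fars2 lies at 3.16 after 5 min and 1.15 after 10 min, while Dars is far below genes of its length at both times (0.128 and 0.274).

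The difference between the 2 places changed with time. Over all lengths, the cytosolic genes had medians of recovery of 0.478 to 0.665 after 5 min and the mitochondrial ones of 0.672 to 0.846. After 10 min the order was the opposite, with 1.15 to 1.38 and 0.949 to 1.10. The higher mitochondrial medians after 5 min were seen only in the class over 40 kb, with 0.865 to 0.986 against 0.312 to 0.416. In each shorter class the cytosolic medians were higher, with 0.605 to 0.803 against 0.279 to 0.541 at 10 to 20 kb. Under 10 kb the cytosolic side was Qars alone. After 10 min the cytosolic medians were again higher in each class under 40 kb, and over 40 kb the ranges overlapped. The ratio of the median RPKM of the 2 places was 1.67 to 1.87 after 5 min and 2.38 to 2.82 after 10 min. Some pairs changed order. Mars2 was below Mars in all 4 steady-state libraries and above it in all 8 recovery libraries. Yars2 was likewise above Yars in all 8, and Hars2 above Hars in all 4 libraries after 5 min. These mitochondrial genes are each shorter than their cytosolic counterpart.

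Between the genotypes, no synthetase gene passed the test in any 1 condition. These are bulk samples, in which fewer cells of a type and less RNA per cell cannot be told apart. With limma on log2(RPKM + 0.1) and Benjamini-Hochberg adjustment over all genes tested, 0 of 36 genes in steady state, 0 of 33 after 5 min and 0 of 35 after 10 min had an adjusted p below 0.05. Aars2, Cars2 and Vars2 after 5 min and Lars2 after 10 min were at or below 0.5 RPKM in both genotypes and were not tested. Among all genes this test called 0 of 11347 (0%), 0 of 8985 (0%) and 0 of 10241 (0%), so at 2 against 2 libraries it called nothing at all. At an unadjusted p below 0.05 there were 1, 1 and 3 synthetase genes and 2083, 846 and 2098 genes in all. A fit of all 12 libraries with a shared spread called 132, 532 and 264 genes, of which 0 were synthetase genes. The median log2 fold change of the synthetase genes was 0.03 in steady state, -0.10 after 5 min and 0.08 after 10 min, beside 0.03, -0.06 and 0.06 for all genes tested.

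By the ratio of means, 0 of the 36 genes were 1.5-fold higher and 0 were 1.5-fold lower with no overlap between genotypes in steady state, where 6.24% and 1.5% of all genes were. After 5 min 0 of 33 were higher and 1, Wars, was lower, against 4.36% and 4.91% of all genes. After 10 min 0 of 35 were on either side, against 8.43% and 2.25%. Without the fold limit, 12 of 36 genes were wholly above WT in steady state (32.0% of all genes) and 9 wholly below (21.4%). After 5 min 4 of 33 were above (15.4%) and 6 below (25.0%), and after 10 min 8 of 35 were above (33.5%) and 11 below (21.8%). In steady state both shares were near those of all genes, and after 10 min the share below WT was larger and the share above it smaller than among all genes.

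In steady state the lowest log2 fold changes were those of Rars, Wars2 and Dars, and none of them passed the test. Rars (arginine, chromosome 11, 35808381 to 35834528) had 5.17 and 4.96 RPKM in WT and 4.46 and 3.87 RPKM in the EloA null labelled libraries, a log2 fold change of -0.28 ± 0.11 (SE, limma adjusted p = 0.274). Wars2 (chromosome 3, 99141090 to 99220203) had 1.29 and 1.29 RPKM in WT and 1.05 and 1.08 RPKM in the others, a log2 fold change of -0.26 ± 0.08 (limma adjusted p = 0.215). Dars had 5.13 and 5.29 RPKM in WT and 4.96 and 4.31 RPKM in the others, a log2 fold change of -0.17 ± 0.11 (limma adjusted p = 0.444). In all 3 both EloA null labelled libraries were below both WT libraries. Without the second EloA null labelled library Rars was at -0.18 and Dars at -0.07, and without the first Dars was at -0.27. With the GC trend removed Dars was at -0.05.

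The largest values on the other side were those of Vars, Aars2 and Sars (serine). Vars had 2.36 and 2.28 RPKM in WT and 2.56 and 3.64 RPKM in the EloA null labelled libraries, a log2 fold change of 0.38 ± 0.18 (limma adjusted p = 0.35). The second of these libraries stood far above the other 3, and without it the value was 0.14, whereas without the first it was 0.63. Aars2 had a log2 fold change of 0.27 ± 0.12 (limma adjusted p = 0.341), on the values given above. Sars had 2.48 and 2.06 RPKM in WT and 2.82 and 2.57 RPKM in the others, a log2 fold change of 0.24 ± 0.12 (limma adjusted p = 0.371). Without the second WT library Aars2 was at 0.14 and Sars at 0.11, and without the first Sars was at 0.37. With the GC trend removed Sars was at 0.14. The groups did not overlap in any of these 3 genes, and none of the differences passed the threshold.

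After 5 min of recovery Wars (cytosolic tryptophan) had 2.61 and 1.83 RPKM in WT and 1.46 and 1.46 RPKM in the EloA null labelled libraries, a log2 fold change of -0.55 ± 0.21 (limma adjusted p = 0.516). The WT libraries were further apart than the nearer of them was from the other group, and without the first WT library the log2 fold change was -0.30, short of 1.5-fold. Wars2 had 1.34 and 1.16 RPKM in WT and 1.01 and 0.895 RPKM in the others, a log2 fold change of -0.36 ± 0.16 (limma adjusted p = 0.579). Dars had 0.727 and 0.708 RPKM in WT and 0.489 and 0.605 RPKM in the others, a log2 fold change of -0.34 ± 0.21 (limma adjusted p = 0.697). On the other side Mars2 had 5.28 and 6.25 RPKM in WT and 6.90 and 8.86 RPKM in the others, a log2 fold change of 0.44 ± 0.21 (limma adjusted p = 0.591). Farsa had 4.68 and 3.87 RPKM in WT and 4.99 and 4.79 RPKM in the others, and Ears2 (mitochondrial glutamate) 0.853 and 0.801 RPKM against 0.963 and 0.940 RPKM. Their log2 fold changes were 0.20 ± 0.18 and 0.18 ± 0.16 (limma adjusted p = 0.789 and 0.782). Without the second WT library Farsa was at 0.06 and without the first at 0.33. Mars2 was at 0.26 without the second EloA null labelled library, and Dars at -0.21 without the first.

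After 10 min Wars2 had 0.675 and 0.559 RPKM in WT and 0.428 and 0.437 RPKM in the EloA null labelled libraries, a log2 fold change of -0.43 ± 0.18 (limma adjusted p = 0.275). Nars2 had 0.655 and 0.605 RPKM in WT and 0.428 and 0.507 RPKM in the others, a log2 fold change of -0.37 ± 0.17 (limma adjusted p = 0.311). Rars had 10.2 and 10.2 RPKM in WT and 8.13 and 8.73 RPKM in the others, a log2 fold change of -0.27 ± 0.09 (limma adjusted p = 0.221). On the other side Pars2 had 2.19 and 1.73 RPKM in WT and 2.72 and 2.68 RPKM in the others, a log2 fold change of 0.45 ± 0.14 (limma adjusted p = 0.205). Qars had 10.1 and 10.3 RPKM in WT and 13.5 and 12.8 RPKM in the others, a log2 fold change of 0.36 ± 0.09 (limma adjusted p = 0.163). Sars2 had 2.43 and 1.73 RPKM in WT and 3.18 and 2.16 RPKM in the others, whose ranges overlapped, a log2 fold change of 0.34 ± 0.25 (limma adjusted p = 0.476). The other 5 genes did not overlap between genotypes, and their log2 fold changes had the same sign in all 3 conditions. When 1 library was left out Sars2 ranged from 0.07 (without the first EloA null labelled library) to 0.61 (without the second), with 0.11 without the second WT library and 0.57 without the first. Pars2 was at 0.29 without the second WT library. With the GC trend removed Pars2 and Qars were each at 0.21 and Sars2 at 0.05. In steady state that removal put Pars2 at -0.14 and Qars at -0.06, so their sign there changed.

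**Figure D3:**
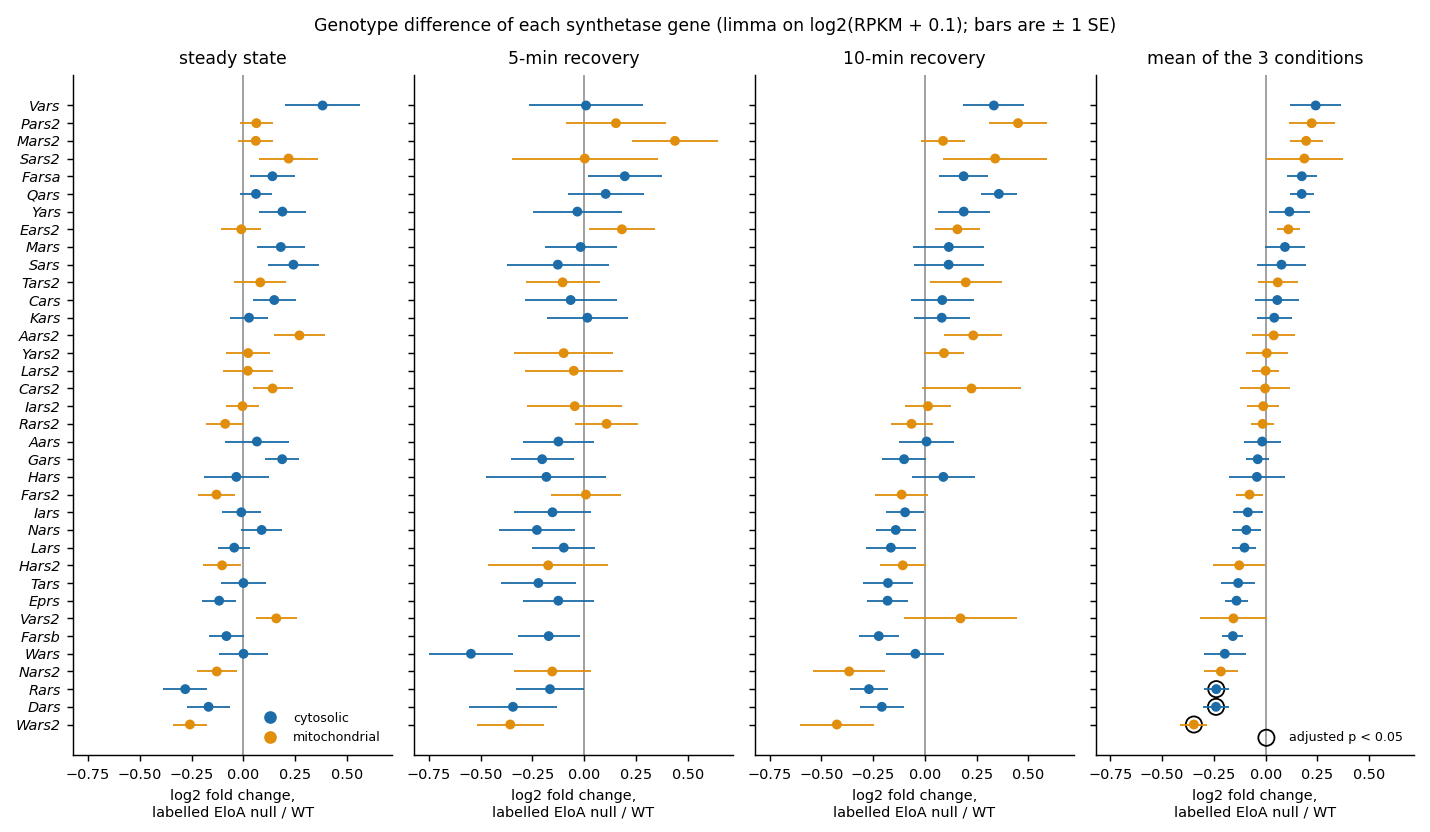
Log2 fold change of the libraries labelled EloA null over WT (x axis, limma on log2(RPKM + 0.1), bars ± 1 SE) for each synthetase gene in steady state, 5-min recovery, 10-min recovery and as the mean of the 3; genes without a point were not tested. No gene passes in 1 condition. In the mean Wars2 (-0.35), Rars (-0.24) and Dars (-0.24) have an adjusted p below 0.05 (limma), in a fit added because these genes had low values.

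The mean of the 3 genotype differences was also fitted, with limma on all 12 libraries. This fit was added because Wars2, Rars and Dars had low values in several conditions, so it uses the same values again and its p-values are a description and no independent evidence for these genes. It called 3 of the 36 synthetase genes, all lower in libraries labelled EloA null, against 8.08% of 11975 genes called lower and 10.4% called higher. It called 0 higher. At an unadjusted p below 0.05, 3 of the 36 were higher and 6 lower, where 2180 and 1863 of the 11975 genes were. The share called lower is close to that of all genes. Wars2 had a mean log2 fold change of -0.35 ± 0.07 (limma adjusted p = 0.00964), which corresponds to 21.4% less nascent RNA. Rars had -0.24 ± 0.06 (limma adjusted p = 0.0288) and Dars -0.24 ± 0.06 (limma adjusted p = 0.0324), 15.2% and 15.3% less. With the replicate number as a block the adjusted p of Dars was 0.0588, which missed the threshold.

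Wars2 kept an adjusted p below 0.05 when any 1 of the 12 libraries was left out, with log2 fold changes of -0.39 to -0.31. Rars kept it without the first EloA null labelled library of steady state, without either WT library of 5-min recovery and without the first EloA null labelled library of that condition, and without any other library its adjusted p was between 0.0527 and 0.0894. Dars kept it without the first EloA null labelled library of steady state, without the second WT library of 5-min recovery and without the second EloA null labelled library of that condition, and otherwise had 0.0511 to 0.0924. Fits with a library left out reuse the values that led to the choice of these genes, so they are no independent evidence either. With the trend of fold change with GC content removed within each condition, Dars moved to -0.15 (limma adjusted p = 0.0565). Wars2 and Rars were then at -0.28 (limma adjusted p = 0.0162) and -0.21 (limma adjusted p = 0.0214). Wars, at -0.28, passed as well (limma adjusted p = 0.0169).

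By values alone, 4 synthetase genes lay wholly below WT in all 3 conditions, Wars2, Rars, Dars and Farsb, against 9.29% of all genes, and 0 lay wholly above in all 3, against 8.58%. Farsb had 3.73 and 4.00 RPKM in WT and 3.67 and 3.63 RPKM in libraries labelled EloA null in steady state, 1.61 and 1.55 against 1.49 and 1.30 RPKM after 5 min, and 2.03 and 2.04 against 1.69 and 1.77 RPKM after 10 min. Its mean log2 fold change of -0.16 ± 0.05 missed the threshold (limma adjusted p = 0.0653). Farsb overlaps Sgpp2 on the other strand by 2329 bases, and Wars2 overlaps the annotated genes Gm18982 and Mir6481, both on the other strand. The use of strand in the counting is not stated, so reads of these could be shared.

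**Figure D4:**
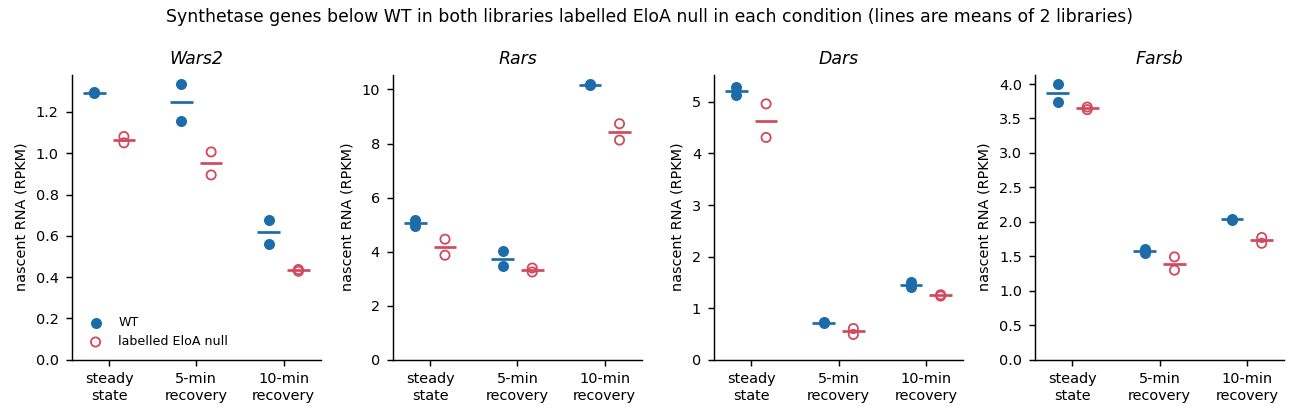
Nascent RNA in RPKM (y axis) of Wars2, Rars, Dars and Farsb in each of the 12 libraries by condition (x axis), filled for WT and open for libraries labelled EloA null, with lines at the mean of 2 libraries. In each gene and condition both open points lie below both filled points, from 1.29 and 1.29 RPKM against 1.05 and 1.08 RPKM for Wars2 in steady state.

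The genotype differences of the family followed GC content in steady state and after 10 min, and less closely after 5 min. The Spearman correlation across the synthetase genes between log2 fold change and GC content was 0.78 in steady state (36 genes), 0.41 after 5 min (33 genes) and 0.79 after 10 min (35 genes), and across all genes tested it was 0.52, 0.05 and 0.46. The points share libraries, and short genes among the 36 are richer in GC (Spearman correlation of length and GC content -0.61). Vars, Aars2, Sars2 and Vars2, with GC contents of 53.0% to 55.6%, were all above WT by mean RPKM in steady state and after 10 min, and after 5 min all 4 were at or below it, with ratios of 0.999, 0.692, 0.984 and 0.435. Dars, Nars2 and Wars2, with GC contents of 39.0%, 40.3% and 42.1%, were below WT by mean in steady state, after 5 min and after 10 min. So were Farsb (41.9%) and Eprs (42.0%). Yars2 (40.8%), by contrast, was above WT by mean in steady state and after 10 min (ratios 1.02 and 1.07). Rars2 (41.1%) and Fars2 (42.0%) were above it after 5 min (1.08 and 1.01), and each of these genes was below it otherwise. With the GC trend of all genes removed the correlation across the synthetase genes was -0.01, 0.33 and 0.30, Vars in steady state was at 0.12 and Aars2 at 0.03, while Rars remained at -0.27. The part of GC content in these differences was not tested beyond this.

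**Figure D5:**
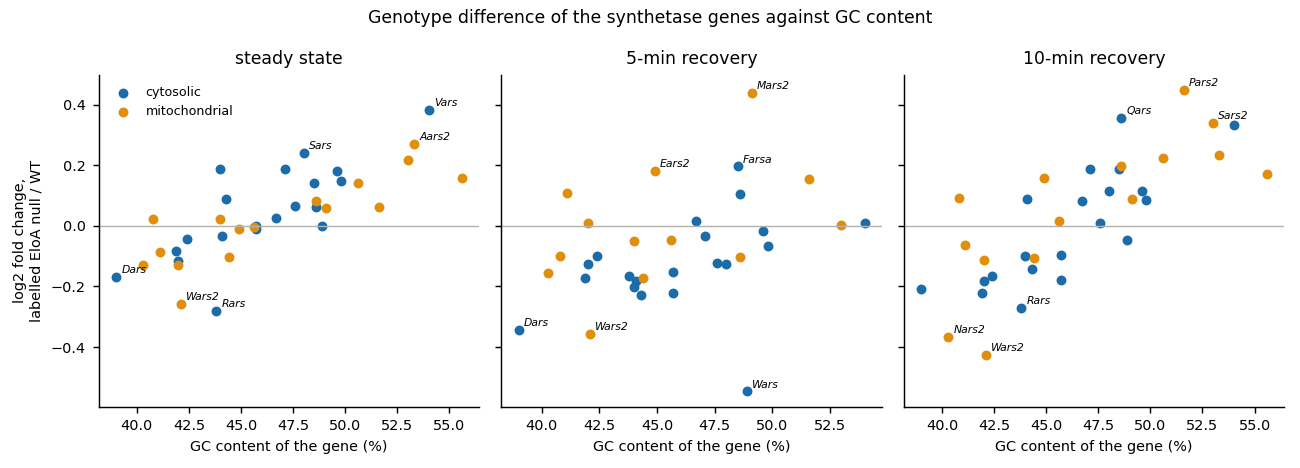
Log2 fold change of the libraries labelled EloA null over WT (y axis) against the GC content of the gene in percent (x axis) for the synthetase genes tested in each condition. In steady state and after 10 min the points climb from Dars at 39.0% GC to genes above 53% GC, with rank correlations of 0.78 and 0.79; after 5 min the correlation is 0.41.

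Whether a genotype difference in recovery departed from that in steady state was tested next, and no synthetase gene passed. The test of the difference itself, in a limma fit of all 12 libraries, called 0 of the 36 genes after 5 min, where 0.100% of all genes were called, and 0 after 10 min, where 0.00835% were. The smallest adjusted p of a synthetase gene was 0.678 after 5 min (limma). At an unadjusted p below 0.05 there were 3 of the 36 after 5 min and 0 after 10 min, where 780 and 196 of all 11975 genes were. The 3 synthetase genes were Gars, Aars2 and Vars2, with differences of -0.39, -0.66 and -0.96 on the log2 scale. Aars2 and Vars2 were below 0.5 RPKM in both genotypes after 5 min and entered this fit only through other conditions. Aars2 rested on as few as 28 reads after 5 min, so their differences lean on values near the floor. Gars had 4.49 and 4.49 RPKM in WT and 5.23 and 5.03 RPKM in libraries labelled EloA null in steady state, and 1.43 and 1.41 against 1.13 and 1.31 RPKM after 5 min, so that the groups were separate in both conditions and in opposite order. Vars2 went from 1.86 and 1.75 against 1.90 and 2.16 RPKM to 0.388 and 0.229 against 0.177 and 0.0915 RPKM, the last on 12 reads.

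By place, the genotype differences had like medians. In steady state the cytosolic genes had a median log2 fold change of 0.04 (-0.28 to 0.38) and the mitochondrial genes of 0.02 (-0.26 to 0.27). After 5 min the medians were -0.13 for 20 cytosolic and -0.05 for 13 mitochondrial genes, and after 10 min -0.02 and 0.09. The mitochondrial genes not tested after 5 min, Aars2, Cars2 and Vars2, all lay wholly below WT, with ratios of mean RPKM of 0.692, 0.705 and 0.435. Lars2, not tested after 10 min, overlapped between genotypes (ratio 1.02). The 8 genes of the multisynthetase complex had medians of -0.03, -0.11 and -0.13, and 4, 2 and 5 of them lay wholly below WT, where 21.4%, 25.0% and 21.8% of all genes did, while 2, 0 and 1 lay wholly above, where 32.0%, 15.4% and 33.5% did. Of the other 12 cytosolic genes 1, 3 and 4 lay wholly below and 6, 1 and 3 wholly above. The difference between these groups of genes was not tested.

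Among other genes of the pathway 0 passed the test in any single condition. The 3 scaffold genes of the complex were all expressed, with Eef1e1 at 7.56 and 6.73 RPKM in WT and 7.80 and 6.85 RPKM in libraries labelled EloA null in steady state, Aimp1 at 3.16 and 3.11 against 3.10 and 2.47 RPKM and Aimp2 at 2.67 and 3.08 against 2.97 and 3.14 RPKM. Aimp1 and Aimp2 thus lay within the range of the synthetase genes of the complex (means of 2.17 to 4.92 RPKM), and Eef1e1 lay above it. Of 14 genes for other steps of charging and tRNA handling, 11, 6 and 10 were tested in the 3 conditions, with 0 called at each and 0, 0 and 1 at an unadjusted p below 0.05. Tarsl2, a further threonine synthetase gene, was below 0.5 RPKM in all 12 libraries.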

How the data were processed

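Bru-seq libraries, 12 of the 28 samples of the series, were used, and the 16 CUT&RUN and ChIP samples were not analysed here. Per the labels, the submitters' processing notes and the methods of the study, paired reads were mapped with Bowtie2 (2.3.4.3) to mm10 (GRCm38) and to dm3, the fly build, unique alignments were kept with SAMtools, and reads over entire RefSeq genes were counted with featureCounts (1.6.1). The values the authors deposited are RPKM computed with edgeR, in 1 table each for steady state, 5-min and 10-min recovery, and the tables were treated as normalized separately. Fly spike-in RNA was added, and whether it entered the scaling, like strand use in the counting, is not given in the sources used here. The 6 columns of authors' means were not used. Amounts of RNA taken for purification differ between the labels and the methods of the study.

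Each table was tested on its own with limma (3.58.1, R 4.3.3) on log2(RPKM + 0.1), so that fold changes of low genes are understated, with an intensity trend, for genes with a mean above 0.5 RPKM in either genotype. Adjusted p-values are Benjamini-Hochberg over all genes tested. The difference of genotype effects and their mean over 3 conditions used 1 fit of all 12 libraries, and the mean was added after the data had been seen. No permutation test is given, since 2 against 2 libraries cannot go below a two-sided exact p of 0.333. The functions were tested on simulated data.

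Genes were matched to RefSeq annotation by symbol or older symbol. Numbers of reads were recovered from the RPKM steps, to within 0.02 reads. Replicate libraries differed beyond sampling noise, with chi-square per degree of freedom of 7.79 to 17.4, so library spread rather than read number limits precision. The 36 genes and all gene lists were chosen with earlier results of these data known. All 36 are covered by level and recovery. Values in each library are given for the 3 highest and 3 lowest in steady state, the 3 shortest and 3 longest, the 3 largest log2 fold changes each way in each genotype comparison, and genes past 1.5-fold without overlap or an adjusted p of 0.05. Other genes given by library (Qars, Dars and Eprs in recovery, Farsb, Gars and Vars2) were chosen after their values were seen. Alternatives were other pseudocounts, no filter, 1 fit of all libraries, a replicate block, median centring, removal of the GC trend (lowess span 0.3) and leaving out each library.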

Additional observations from a re-analysis of the deposited data

How the results depend on the processing

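With 2 libraries a group, no single-condition call of a synthetase gene appeared under any alternative run, although the number of all genes called ranged widely. One fit of all 12 libraries called 132, 532 and 264 genes in the 3 conditions, against 0 in each table alone. After 10 min, 12 genes were called with libraries centred on their median, 10 with the GC trend removed and 5 with a pseudocount of 1. Leaving out 1 library gave up to 60 genes after 5 min and up to 33 after 10 min. For the difference between recovery and steady state, 12 and 1 genes became 3 and 4 with a pseudocount of 1, and 2 and 1 with the replicate block. The cause of these changes was not tested. Eloa after 5 min, at 0.95 on the log2 scale in either fit, had an adjusted p of 0.0169 in the fit of all 12 libraries and of 0.249 in its own table (limma). Divided by the median ratio of all expressed genes, the median recovery level after 5 min was 1.02 instead of 0.602, by construction of that scaling.

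The mean over the 3 conditions called 3 synthetase genes, and between 1 and 5 when 1 library was left out. It called 1, Wars2, without either WT library of steady state, the second EloA null labelled library of steady state, or any of the 4 libraries of 10-min recovery, and 5 without the first EloA null labelled library of 5-min recovery. With the replicate block it called 2, Wars2 and Rars, and Dars had a limma adjusted p of 0.0588. With the block and the GC trend removed it called 4. The deviations of same-numbered libraries had correlations of 0.10, 0.12 and 0.10 over all genes and of 0.10, 0.51 and 0.46 over the synthetase genes. With 2 pairs a condition, and no source tying the numbers to a shared batch, they were not treated as paired. In each table alone the block called 0, 128 and 0 genes, none of them a synthetase gene.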

Other observations

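Genes of the amino acid response, many of which ATF4 is known to activate, were looked at beside the synthetase genes. Of 20 such genes 18, 13 and 13 were tested in steady state, after 5 min and after 10 min. In each table alone 0 had an adjusted p below 0.05 (limma), with 6, 0 and 6 at an unadjusted p below 0.05, all higher in libraries labelled EloA null, where 1604 of 11347, 408 of 8985 and 1560 of 10241 of all genes were higher at that p. One fit of all 12 libraries called 0, 0 and 1 of them, the last with an adjusted p of 0.0316 (limma). Their median log2 fold changes were 0.27, -0.07 and 0.37, against 0.03, -0.06 and 0.06 for all genes tested. In the mean of the 3 conditions 2 of 18 were called, both higher, where 10.4% of all genes were called higher. These were Ppp1r15a, a phosphatase subunit that reverses the block of translation under stress, and Atf5, a transcription factor, with log2 fold changes of 0.53 and 0.38 (limma adjusted p = 0.011 and 0.0169).

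Ppp1r15a had 0.818 and 0.770 RPKM in WT and 1.56 and 1.29 RPKM in the others in steady state, 1.78 and 1.54 against 1.39 and 1.58 RPKM after 5 min, and 1.25 and 0.842 against 1.96 and 2.23 RPKM after 10 min. The groups were apart in steady state and after 10 min and overlapped after 5 min. Asns, the asparagine synthetase gene and a well known ATF4 target, had 31.4 and 30.5 RPKM in WT and 29.7 and 26.4 RPKM in the others in steady state, and a mean log2 fold change of -0.14 (limma adjusted p = 0.303). Of the 5 synthetase genes with TGATGNAA in their promoter, 0 were called in any condition or in the mean.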
